A study of Mus musculus with 7 samples.

Results

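The miR-148 and miR-152 family is a small group of miRNAs that share their seed, the stretch of bases with which a miRNA recognises its target mRNAs. It was followed here in vesicles released by mouse visceral fat. The members are the rows of the deposited table named mmu-miR-148a-3p, mmu-miR-148b-3p, mmu-miR-152-3p and mmu-miR-152-5p (mmu, for mouse, is left off below), and all 4 were present among 820 miRNAs. Of the 4, 3 are the guide-like 3p strands that carry the shared seed, and miR-152-5p is the opposite strand of the miR-152 precursor. All 4 passed the filter used for testing, a mean of at least 5 rpm (reads per 1000000 miRNA reads), which 387 miRNAs passed in all.

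The vesicles came from epididymal white fat of male ApoE-/- mice, which lack apolipoprotein E and are prone to atherosclerosis. The labels give an age of 8 weeks and a treatment of 12 weeks. One group received a high-fat diet alone (HFD, 4 libraries), and the other, HFD+Ni, received nicotine (2 mg/kg/day) on top of the same diet (3 libraries). Both groups therefore carried the ApoE deletion and the diet, and no group on another diet was analysed here. Whether a library stands for 1 animal is not in the labels, and the p-values below rest on the spread between libraries, part of which may be technical.

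A miRNA is cut from a hairpin precursor, and 1 of its 2 arms is usually loaded into an Argonaute protein while the other is mostly degraded. In mammalian cells miR-148a and miR-152 are known repressors of the DNA methyltransferase Dnmt1. miR-148a is also known to repress the LDL receptor and the cholesterol exporter ABCA1 in liver cells, and to promote the differentiation of fat cell precursors.

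The 3 mature 3p strands are shown because their shared seed defines the family, and miR-152-5p because it is the member with the largest difference between the groups. miR-130a-3p, of the miR-130 and miR-301 family, is shown because its seed is offset from theirs. Sequences are from RefSeq on GRCm38.p6, 5′ to 3′, with bases 2 to 8, the seed, in capitals.
miR-148a-3p: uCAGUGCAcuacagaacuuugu
miR-148b-3p: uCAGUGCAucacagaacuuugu
miR-152-3p: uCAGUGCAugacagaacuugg
miR-152-5p: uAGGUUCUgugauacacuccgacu
miR-130a-3p: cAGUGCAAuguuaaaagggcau

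Counting from the 5′ end, miR-148b-3p differs from miR-148a-3p by C9U and U10C. miR-152-3p differs from miR-148a-3p by C9U, U10G and U20G, and ends a base earlier. All of these differences lie outside the seed, and in the RefSeq table of 1679 mature miRNA names the seed CAGUGCA is held by these 3 strands alone. Bases 3 to 8 of the 3 strands return as bases 2 to 7 of miR-130a-3p. No other row of the deposited table had near-equal reads to any of the 3 strands in every library (within 5% or 2 reads).

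The 3 genes lie on different chromosomes (GRCm38). Mir148a lies between genes at chr6:51269812-51269910 on the minus strand, 162760 bases from the nearest protein-coding gene in the GENCODE annotation, Nfe2l3. Mir148b, at chr15:103285125-103285221, and Mir152, at chr11:96850393-96850465, both lie on the plus strand within introns of Copz1 and Copz2, paralogous genes for the zeta subunit of the COPI vesicle coat. The miR-152 hairpin is printed with the 5p arm and then the 3p arm in capitals, since both arms were read.
Mir152: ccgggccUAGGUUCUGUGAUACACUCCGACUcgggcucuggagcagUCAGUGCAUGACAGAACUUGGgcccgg

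The libraries held between 53626 and 1055902 miRNA reads. HFD replicate 2 was the deepest, and HFD+Ni replicate 1 the shallowest, where 1 read is 18.6 rpm. HFD+Ni replicate 1 also stood apart in content: its epithelial miRNAs (7 of 7 listed, among them miR-203-3p, miR-205-5p and members of the miR-200 family) summed to 46153 rpm against 5333 to 14311 rpm in the other 6 libraries. Its 4 fat-associated miRNAs, none of which is specific to the adipocyte, summed to 1716 rpm against 4882 to 6220 rpm elsewhere. The muscle miRNAs (5 of 7 listed in the table) summed to 4301 rpm in HFD replicate 2 and 4025 rpm in HFD replicate 4, against 762 to 1156 rpm in the other 5. In such bulk samples, fewer vesicles from a cell type and less miRNA per vesicle cannot be told apart.

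miR-148a-3p carried most of the family's reads in every library. Its level was 1918, 2983, 2231 and 2142 rpm in HFD replicates 1 to 4. In HFD+Ni replicates 1 to 3 it was 4960, 2047 and 2629 rpm. HFD+Ni replicate 1 held the highest value, with an exact Poisson 95% interval of 4382 to 5594 rpm that lies above the intervals of all other libraries, while the other HFD+Ni libraries lay within the range of HFD. The means were 2318 ± 462 rpm over the HFD libraries (SD, n = 4) and 3212 ± 1542 rpm over the HFD+Ni libraries (SD, n = 3), a ratio of 1.39. Without HFD+Ni replicate 1 the ratio was 1.01. The log2 fold change was 0.39 (95% interval -0.35 to 1.12, limma adjusted p = 0.830), and 0.02 without HFD+Ni replicate 1. The library in which miR-148a-3p was highest is the one with the high epithelial and low fat-associated sums given above. That library also held the lowest leukocyte (1977 rpm), endothelial (12979 rpm), erythroid (0 rpm) and smooth muscle and mesenchymal sums (15235 rpm). Its testis and sperm sum was the highest, at 1082 rpm, while its liver and muscle sums lay within the range of the other libraries. The part of those cells in the result was not tested.

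**Figure D1:**
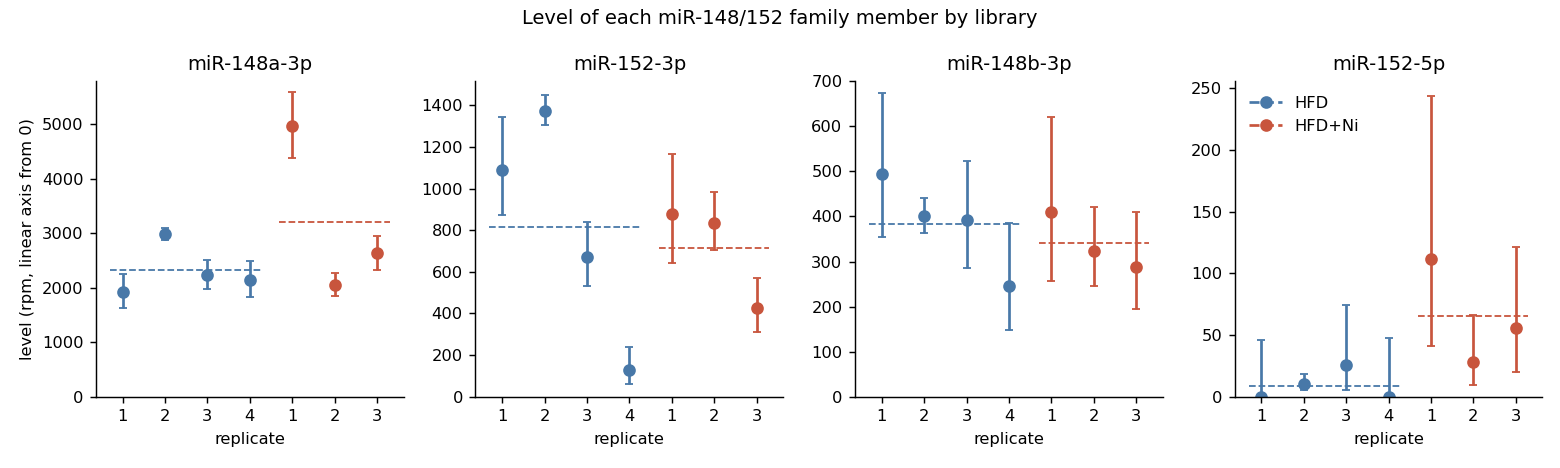
Level of the 4 family members in rpm (linear axes from 0, each panel on its own scale) in HFD replicates 1 to 4 and HFD+Ni replicates 1 to 3. Points are libraries, bars are exact Poisson 95% intervals for counting error only, and dashed lines are group means; miR-148a-3p stands out in HFD+Ni replicate 1 (4960 rpm) and miR-152-3p in HFD replicate 4 (130 rpm).

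miR-152-3p was the second member by mean level and, over the 7 libraries, the most variable of the 3p strands. It was at 1089, 1374, 673 and 130 rpm in HFD replicates 1 to 4. In HFD+Ni replicates 1 to 3 it was at 876, 836 and 427 rpm. The value in HFD replicate 4 rests on 10 reads (exact Poisson 95% interval 62.3 to 239 rpm) and lies below the intervals of the other 6 libraries, and the highest library held 10.6 times the lowest. The HFD+Ni libraries all lay inside the range of HFD. HFD replicate 4 also held the highest sum of the 2 endothelial strands of miR-126a, 32381 rpm, and a muscle sum of 4025 rpm. HFD replicate 2, where miR-152-3p was highest, held the higher muscle sum of 4301 rpm. The part of those cells in the result was not tested. The group means were 816 ± 541 rpm over the HFD libraries (SD, n = 4) and 713 ± 248 rpm over the HFD+Ni libraries (SD, n = 3). Group means and the fitted change differ in sign: on the log2(rpm + 1) scale the fold change was 0.17 (95% interval -1.38 to 1.73, limma adjusted p = 0.981), and -0.26 in edgeR on the recovered reads (adjusted p = 0.961). Without HFD replicate 4 it was -0.56 in limma (adjusted p = 0.861) and without HFD+Ni replicate 1 it was -0.01.

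miR-148b-3p was the least abundant of the 3p strands. Its highest library held 2.01 times its lowest, against 2.59 for miR-148a-3p, which was highest in HFD+Ni replicate 1. Within HFD alone miR-148a-3p was the steadier, with an SD of 19.9% of its mean against 26.7%. In HFD+Ni these were 48.0% and 18.4%. miR-148b-3p was at 495, 401, 392 and 247 rpm in HFD replicates 1 to 4. In HFD+Ni replicates 1 to 3 it was at 410, 324 and 288 rpm. The groups overlapped, with the lowest value again in HFD replicate 4, here on 19 reads. The means were 383 ± 102 rpm over the HFD libraries (SD, n = 4) and 341 ± 62.8 rpm over the HFD+Ni libraries (SD, n = 3), and the log2 fold change was -0.14 (95% interval -1.15 to 0.87, limma adjusted p = 0.967). It was -0.34 without HFD replicate 4 and -0.01 without HFD replicate 1.

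miR-152-5p was scarce, with 31 reads over the 7 libraries. It was read 0, 11, 3 and 0 times in HFD replicates 1 to 4, which is 0, 10.4, 25.5 and 0 rpm. In HFD+Ni replicates 1 to 3 it was read 6, 5 and 6 times, which is 112, 28.4 and 55.8 rpm. Every HFD+Ni library therefore lay above every HFD library, but the highest HFD and the lowest HFD+Ni values rest on 3 and 5 reads. The counts of 0 in HFD replicates 1 and 4 allow up to 37.1 and 39.0 rpm (3 reads), more than the level measured in HFD+Ni replicate 2. The means were 8.99 ± 12.1 rpm over the HFD libraries (SD, n = 4) and 65.4 ± 42.6 rpm over the HFD+Ni libraries (SD, n = 3). The log2 fold change was 3.78 (95% interval 0.16 to 7.41), with an unadjusted p of 0.0423 and an adjusted p of 0.830 in limma, so the difference did not pass the corrected threshold. Beside it, the endothelial sum (2 of 2 listed, both strands of miR-126a) was 20518 to 32381 rpm in HFD. In HFD+Ni replicates 1 to 3 that sum was 12979, 18597 and 18851 rpm. The sum separated the groups, but for miR-126a-3p alone and for miR-126a-5p alone the groups overlapped. The part of this sum in the result was not tested.

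The size of that difference depended on the pseudocount and the tool. The log2 fold change was 1.52 with a pseudocount of 20 rpm, about 1 read of the shallowest library, and 2.55 in edgeR (unadjusted p = 0.0496, adjusted p = 0.638). With each library left out in turn it was between 3.09 and 4.67, and the unadjusted p stayed under 0.05 in 2 of the 7 fits, those without HFD replicate 2 and without HFD replicate 3. The highest unadjusted p of these fits was 0.108, without HFD+Ni replicate 1. The authors' deposited table gives miR-152-5p a log2 fold change of 2.49 with a p-value of 0.0213 and an FDR of 1, and it is not among the 15 miRNAs of the authors' deposited list of changed miRNAs. That list carries no column for HFD replicate 2, the deepest library, and so shows another set of libraries than the tests here. For the 3p strands the authors' deposited table gives log2 fold changes of 0.41 for miR-148a-3p, -0.21 for miR-148b-3p and -0.26 for miR-152-3p, each with an FDR of 1.

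Set against the whole table, limma called 0 of 387 miRNAs after adjustment at 0.05 (0%). Without adjustment, 11 had p under 0.05 (2.84%), of which 6 were higher in HFD+Ni (1.55%) and 5 lower (1.29%). edgeR on the recovered reads called 0, with 30 at unadjusted p under 0.05, and DESeq2 called 1, with 19. Of the 4 family members limma called 0, and 1 had an unadjusted p under 0.05, miR-152-5p, which was higher. The groups did not overlap for 20 of the 387 miRNAs (5.17%), with HFD+Ni above for 11 (2.84%) and below for 9 (2.33%). Among the 4 members this held for 1, miR-152-5p, with HFD+Ni above. Of the 186 tested miRNAs with a mean under 50 rpm, as scarce as miR-152-5p, HFD+Ni lay above for 6 (3.23%). With so few members, 1 of 4 does not separate the family from that background. The members' log2 fold changes of 0.39, 0.17, -0.14 and 3.78 compare with a median of 0.04 over all tested miRNAs and quartiles of -0.58 and 0.84. A change at least as large as that of miR-152-5p, in either direction, was found for 1.81% of the tested miRNAs.

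**Figure D2:**
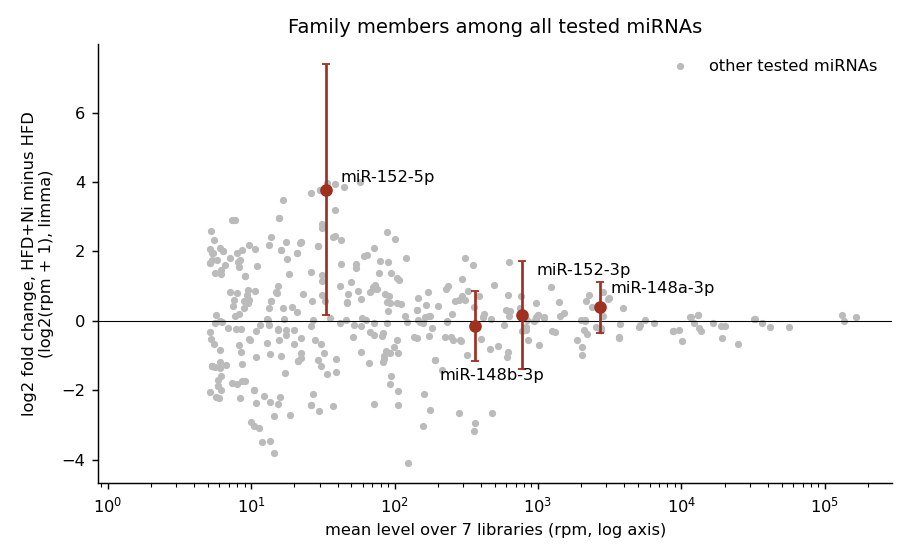
Log2 fold change between HFD+Ni and HFD on the log2(rpm + 1) scale (vertical axis) against the mean level over the 7 libraries (rpm, log axis) for the 387 tested miRNAs, with the family members in red and their limma 95% intervals. The 3p strands lie close to 0 with intervals that span it, and miR-152-5p lies at 3.78 among other scarce miRNAs of wide spread.

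Within a library the members could be ordered by level, since each read stands for a whole mature strand and needs no correction for length. Strands may still differ in how well they ligate. The neighbouring pairs were set by mean log2(rpm + 1) over these same 7 libraries, so the tests are not independent of the order. A pair on the same side in 7 of 7 libraries can only return the smallest p of the permutation. miR-148a-3p was higher than miR-152-3p in 7 of 7 libraries, by 2.01 ± 1.12 on the log2(rpm + 1) scale (SD, n = 7, exact two-sided sign-flip permutation p = 0.0156, the smallest possible, adjusted p = 0.0234 over 3 neighbouring pairs). miR-148b-3p was higher than miR-152-5p in 7 of 7 libraries, by 4.80 ± 2.72 (SD, n = 7, exact p = 0.0156, adjusted p = 0.0234). The size of that gap depends on the pseudocount, since miR-152-5p had 0 reads in 2 libraries, and it was 3.14 with a pseudocount of 20 rpm. miR-152-3p and miR-148b-3p did not differ beyond their spread. The former was higher in 6 of 7 libraries, by 0.83 ± 0.86 (SD, n = 7, exact p = 0.0625, adjusted p = 0.0625), with HFD replicate 4 the exception. Without that library, the only contrary one, the difference was 1.12. The remaining 6 libraries all lay on the same side, so the permutation could only return its smallest p. That adjusted p of 0.0313 (exact permutation) was fixed by leaving out the exception and adds no support. By mean level, miR-148a-3p ranked 41, miR-152-3p 74, miR-148b-3p 97 and miR-152-5p 222 among the 820 miRNAs.

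The family summed to 3527 ± 931 rpm over the HFD libraries (SD, n = 4) and 4331 ± 1758 rpm over the HFD+Ni libraries (SD, n = 3), with the ranges overlapping. The highest library was HFD+Ni replicate 1 at 6359 rpm, and without it the HFD+Ni mean minus the HFD mean was -209.6 rpm, against 804 rpm with it. miR-148a-3p made up 54.8%, 62.6%, 67.2% and 85.1% of the family reads in HFD replicates 1 to 4. In HFD+Ni replicates 1 to 3 it made up 78.0%, 63.3% and 77.3%. The share of miR-152-3p lay between 31.1% in HFD replicate 1 and 5.15% in HFD replicate 4 (exact Clopper-Pearson 95% interval 2.50% to 9.28%, of 194 family reads). The lowest and the highest shares of both strands were thus those of HFD libraries, with HFD+Ni in between, and the make-up of the family differed more among the HFD libraries than between the group means of 67.4% ± 12.8 and 72.9% ± 8.32 for miR-148a-3p.

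**Figure D3:**
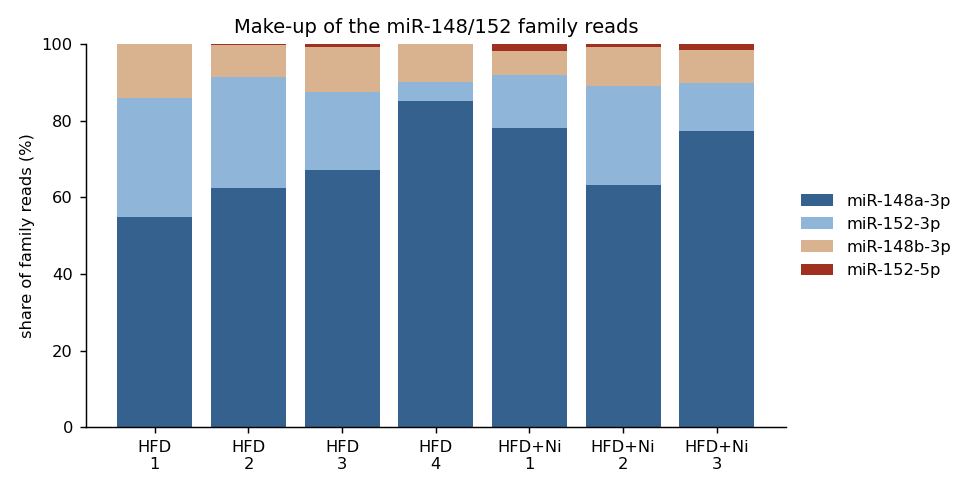
Share of the family reads (%) taken by each member in each library, stacked to 100%. miR-148a-3p takes between 54.8% and 85.1%, and miR-152-3p is smallest in HFD replicate 4 at 5.15%.

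The arms of the miR-152 precursor were compared within each library, since a ratio of arms does not depend on the scaling of the library. In HFD replicates 1 to 4 the 5p arm had 0, 11, 3 and 0 reads beside 88, 1451, 79 and 10 of the 3p arm, a share of 0%, 0.752%, 3.66% and 0%. In HFD+Ni replicates 1 to 3 it had 6, 5 and 6 reads beside 47, 147 and 46 of the 3p arm, a share of 11.3%, 3.29% and 11.5%. HFD+Ni replicates 1 and 3 were highest, while HFD+Ni replicate 2 fell below HFD replicate 3, so the groups overlapped in this share. The count of 0 in HFD replicate 4 allows a share of up to 30.0%, and that in HFD replicate 1 up to 3.41%. The share averaged 1.10% ± 1.74 over the HFD libraries (SD, n = 4) and 8.72% ± 4.70 over the HFD+Ni libraries (SD, n = 3). Beside this, the X-linked testis and sperm miRNAs (14 of 15 listed in the table, some with shared reads) summed to 1082 and 948 rpm in HFD+Ni replicates 1 and 3, to 0 rpm in HFD+Ni replicate 2 and to between 0 and 76.6 rpm in HFD, and their part in the result was not tested.

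**Figure D4:**
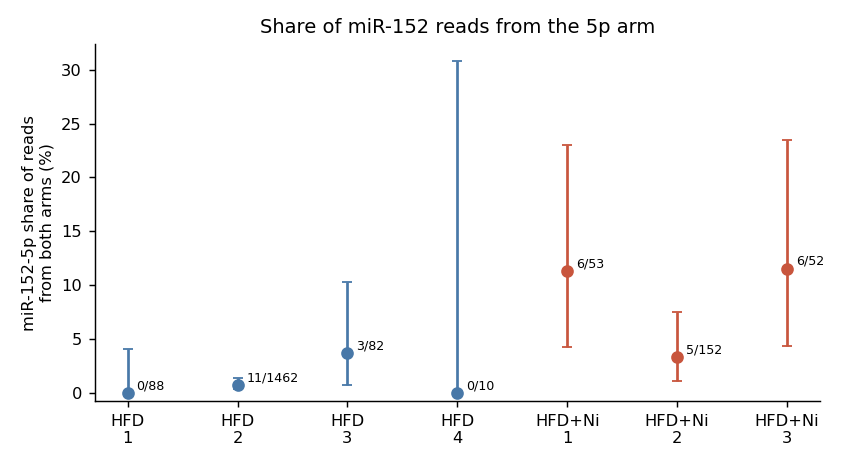
Share of miR-152 reads that came from the 5p arm (%) in each library, with the reads of the 5p arm over those of both arms printed beside each point and exact Clopper-Pearson 95% intervals for counting error only. The shares of HFD+Ni replicates 1 and 3 are the highest, at 11.3% and 11.5%, and the interval of HFD replicate 4 is wide because only 10 reads stand behind it.

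The opposite strands of the other precursors were nearly unread. miR-148a-5p had 12 reads in all, at 0, 7.58, 25.5 and 0 rpm in HFD and 0, 0 and 9.29 rpm in HFD+Ni. Its log2 fold change was -0.84 (95% interval -4.65 to 2.98, limma adjusted p = 0.929). miR-148b-5p had 1 read, in HFD+Ni replicate 3. The 5p strands of miR-152 and miR-148a share a run of 11 bases, and those of miR-152 and miR-148b a run of 8. In the table as a whole, 77 precursors had both arms present with the minor arm at a mean of at least 5 rpm, and their minor arms together took between 2.86% and 4.01% of the reads of both arms in each library. Of the 61 with a read in every library, the minor share was higher in all HFD+Ni than in all HFD libraries for 0, and lower for 2. This comparison over all precursors was added after the values of miR-152 had been seen.

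The 3p strands did not follow one another equally closely across libraries. Over the 7 libraries Pearson's r of log2(rpm + 1) was 0.85 between miR-148b-3p and miR-152-3p (0.72 without HFD replicate 4), 0.24 between miR-148a-3p and miR-152-3p (0.06 without it), and 0.18 between miR-148a-3p and miR-148b-3p (0.02 without it). These values are descriptive, and the points share library depth and scaling. Of the 132 miRNAs with at least 5 reads in every library, the most similar in pattern to miR-148a-3p was miR-200a-3p, an epithelial miRNA (r = 0.93, and 0.71 without HFD+Ni replicate 1). For each member, the highest r among so many miRNAs over 7 libraries is raised by that choice, and these values were not tested. miR-200a-3p was at 1460, 2992, 3201 and 1389 rpm in HFD and 8932, 1689 and 2360 rpm in HFD+Ni, so it too was highest in HFD+Ni replicate 1. miR-10a-5p and miR-10b-5p, HOX-cluster miRNAs with almost equal reads, followed at r = 0.90 each. Without HFD+Ni replicate 1 they stood at 0.81 each, above miR-200a-3p, so the first place of miR-200a-3p rests on that library.

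For miR-152-3p the most similar were miR-24-3p (r = 0.93), miR-98-5p of the let-7 family (r = 0.90) and miR-34a-5p, a target of the tumour suppressor p53 (r = 0.85). All 3 were lowest in HFD replicate 4: miR-24-3p was at 286 rpm there against 762 to 1936 rpm elsewhere, and miR-34a-5p at 364 rpm. Without HFD replicate 4 the values were 0.73, 0.66 and 0.58. For miR-148b-3p they were miR-125b-5p (r = 0.93, and 0.94 without HFD replicate 4), let-7e-5p (r = 0.76, and 0.66 without it) and let-7g-5p (r = 0.76, and 0.58 without it).

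**Figure D5:**
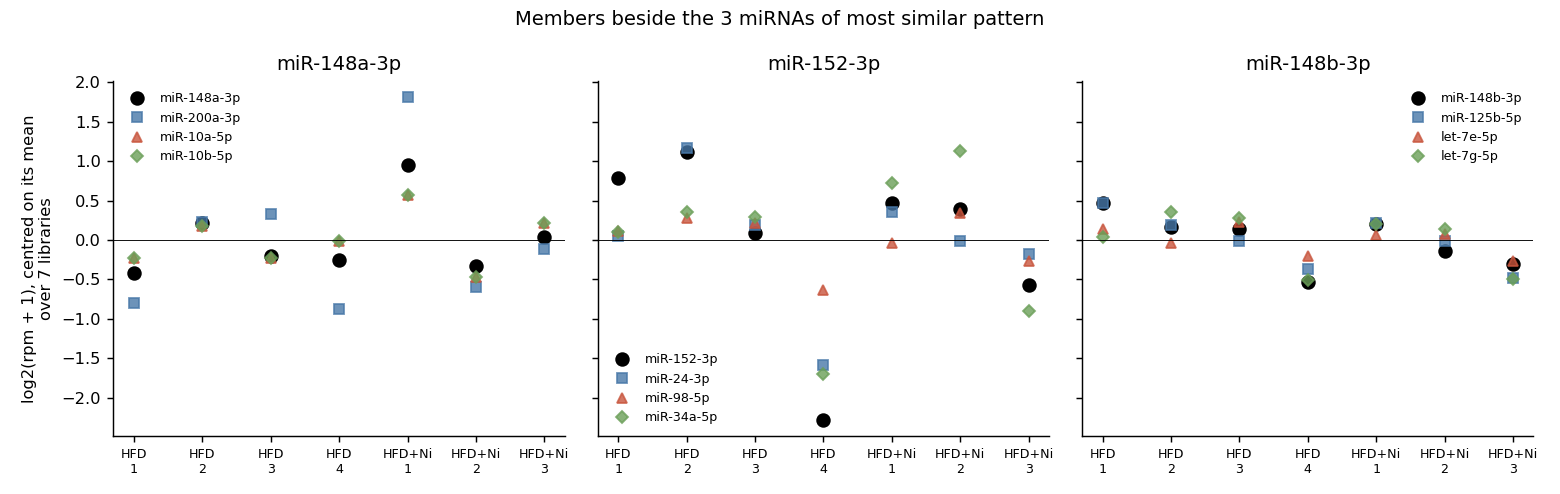
log2(rpm + 1) of each 3p strand (black circles) and of the 3 miRNAs most similar to it, centred on each miRNA's mean over the 7 libraries. The largest departure of miR-148a-3p from its mean is in HFD+Ni replicate 1 and that of miR-152-3p in HFD replicate 4, where miR-152-3p was at 130 rpm.

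Other miRNAs of fat cell differentiation and lipid handling were listed to place the family, and some stand on more than 1 list. Some on the same list had near-equal levels, so the counts below are not of independent miRNAs. Of 23 tested miRNAs that promote adipocyte differentiation 9 had a log2 fold change above 0 and 14 below, and the median was -0.14. The most abundant were miR-143-3p, at 29926 ± 16309 rpm over the HFD libraries and 18362 ± 10105 rpm over the HFD+Ni libraries (SD, n = 4 and 3), and miR-30a-5p and miR-30d-5p, with log2 fold changes of -0.14 and -0.15. Of 14 that oppose it 3 lay above 0 and 11 below, with a median of -0.18, and the most abundant were miR-125b-5p (-0.17), miR-125a-5p (-0.05) and miR-145a-5p (-0.47). Of 17 miRNAs of cholesterol and lipid handling 5 lay above 0 and 12 below, with a median of -0.24, and the most abundant were miR-26a-5p (-0.21), miR-145a-5p and miR-30c-5p (-0.50). limma called 0 members of these lists after adjustment at 0.05. Those with an unadjusted p under 0.05 were miR-204-5p (log2 fold change 1.68), miR-21a-5p (-0.59) and miR-223-3p (-1.03). miR-204-5p was at 266 ± 101 rpm over the HFD libraries and 1114 ± 1078 rpm over the HFD+Ni libraries (SD, n = 4 and 3). The groups overlapped for miR-204-5p and miR-21a-5p. They did not overlap for miR-223-3p, as for 20 of all 387 tested miRNAs (5.17%). Over all 387 tested miRNAs the median was 0.04 and 52.7% had a log2 fold change above 0. Of these 387, limma called 0 after adjustment (0%), and 11 had an unadjusted p under 0.05 (2.84%).

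The miR-29 family, known like miR-148 and miR-152 for repressing DNA methyltransferases, differed little between the groups. Its 3 members had a median log2 fold change of 0.05. miR-29a-3p and miR-29c-3p had near-equal levels, with means of 31864 and 32033 rpm over the HFD libraries. miR-29b-3p, whose level was not near theirs, was at 1400 ± 571 rpm over the HFD libraries and 1466 ± 238 rpm over the HFD+Ni libraries (SD, n = 4 and 3). Of the miR-130 and miR-301 family, whose miR-130 members repress the fat cell regulator PPARγ, 3 members were tested and all lay above 0, with a median of 1.67. That median is the value of miR-301a-3p and miR-301b-3p, which had equal reads, 14 in all. The abundant miR-130a-3p was at 260, 325, 179 and 26.0 rpm in HFD replicates 1 to 4 and at 224, 273 and 111 rpm in HFD+Ni replicates 1 to 3. Like miR-152-3p it was lowest in HFD replicate 4, there on 2 reads, and its log2 fold change was 0.42 (95% interval -1.48 to 2.32, limma adjusted p = 0.929). miR-130b-3p had 1 read and was not tested.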

How the data were processed

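The authors deposited a table of all miRNAs under the name TPM. Each library sums to 1000000 with no correction for length, so the deposited values are RPM. Divided by the worth of 1 read in their library, 100% of the values came out whole within 0.1 read, and these recovered reads gave the depths. The submitters' processing notes name the build GRCm38 (mm10) and the tool edgeR. Aligner, counter, miRNA annotation: not given in the sources used here. That table also holds the deposited log2 fold change, p-value and FDR of the authors. A list of 15 miRNAs has 1 further per-sample column that fits none of the labels, and it was left out.

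The groups were compared on the log2(rpm + 1) scale by limma 3.58.1 under R 4.3.3, two-sided, with a mean-variance trend and no covariate. The fit covered the 387 miRNAs that reached 5 rpm on average, with Benjamini-Hochberg adjustment at 0.05. The fit was tested on simulated data. edgeR 4.0.16 (0 calls) and DESeq2 1.42.0 (1 call) on the recovered reads, other pseudocounts, filters and scalings, and leaving out libraries were alternatives. Levels of members were compared by exact sign-flip permutation. Intervals at the 95% level and floors of 3 reads cover counting error only, since PCR copies are not independent molecules. The members, lists and tests were chosen with earlier results of these data known. Named miRNAs are the members, the opposite strands, the miR-130 and miR-301 family, the 3 most similar in pattern to each member with at least 5 reads in every library, and in each list the most abundant 3 and any at unadjusted p under 0.05. Of the 820 rows, 696 matched a RefSeq mature sequence by name.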

Additional observations from a re-analysis of the deposited data

Results flagged for a closer look

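The ratio of miR-148a-3p to miR-152-3p reads was 16.5 in HFD replicate 4, far from the 1.76, 2.17 and 3.32 of HFD replicates 1 to 3. The gap to the nearest library was 0.894 of the range of the group, above Dixon's 95% critical value of 0.829 for 4 samples. In HFD+Ni the ratio was 5.66, 2.45 and 6.15. The ratio was untransformed, and its denominator in that library, miR-152-3p, rests on 10 reads. A small denominator stretches such a ratio. The inverse ratio and the log scale were not checked, so the flag holds for this form of the ratio only. In HFD, the level of miR-152-3p (0.436) and its share of the family reads (0.582) stayed under the critical value. The ratio was 1 of 12 sets of HFD values checked, and chance flags about 1 in 20.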

How the results depend on the processing

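Over the alternatives, log2 fold changes ranged from 0.02 to 0.66 for miR-148a-3p (21 settings, all above 0), from -0.34 to -0.01 for miR-148b-3p (21, all below 0) and from 1.52 to 4.67 for miR-152-5p (20, all above 0; a filter at 50 rpm removes it), and no member reached an adjusted p under 0.05 in any of them (lowest 0.608, for miR-152-5p in edgeR with RLE scaling). miR-152-3p changed sign in 8 of 21: -0.26 in edgeR with TMM, -0.17 in edgeR with RLE, -0.17 in DESeq2, -0.18 in limma-voom, -0.23 with library weights, -0.56 with the replicate number as a block, and between -0.56 and 0.57 with 1 library left out. The replicate block leaves HFD replicate 4, which has no partner, without influence. Deviations of same-numbered libraries correlated at -0.05, 0.20 and -0.39, and those of other-numbered libraries at between -0.27 and 0.41. So few values cannot settle whether the numbers mark pairs. The labels name no pairs, and the main fit took none. With the block limma called 0 miRNAs. DESeq2 called 1 miRNA and every other setting 0, with 6 to 30 at unadjusted p under 0.05 against 11. With 1 library left out, miR-152-3p lay above miR-148b-3p by 0.67 to 1.12, and the family sum in HFD+Ni lay between -209.6 and 1352 rpm from that in HFD. Without both the deepest and the shallowest library, the level differences of 2.10 (miR-148a-3p over miR-152-3p) and 5.32 (miR-148b-3p over miR-152-5p) had an adjusted p of 0.0938 by exact permutation, where 5 libraries allow no unadjusted p under 0.0625. Depth limits miR-152-5p most.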
